A study of Mus musculus with 6 samples.

Results

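The desmosome components described here are 10 genes, Dsp, Dsc2, Dsc3, Dsg2, Pkp1, Pkp2, Pkp3, Jup, Ppl and Evpl, chosen by symbol among the 19893 gene symbols that have a count in every library. All 10 had a row in all 6 libraries. RNA was sequenced from spheres of MMTV-Neu mice (MMTV-HER2/Neu in the growth protocol) on the FvB background, where a mammary tumour virus promoter drives the Neu (ErbB2) oncogene in mammary epithelium, so both groups carry the transgene. The 3 early lesion (EL) libraries came from glands of mice aged 14 to 18 weeks with no palpable tumor, and the 3 primary tumor (PT) libraries from tumors of mice over 20 weeks old. Digested cells of both groups had been kept for 7 days on low-adhesion plates in mammosphere medium, a condition in which cells grow as floating spheres. No sort is given in the labels. Whether each library stands for its own mouse is not given in the labels, so the p-values below rest on a spread between libraries that may be technical. One label of the early lesion samples adds lung to the tissue name; of 10 lung epithelial markers, Sftpa1, Scgb1a1, Scgb3a2 and Nkx2-1 had 0 counts in all 6 libraries, which allows up to 0.0249 CPM in EL and 0.0187 CPM in PT (3 counts over the libraries of a group, for counting error only). The other 6 were detected, and the list summed to 16.6 to 18.7 CPM in EL and 123 to 135 CPM in PT, most of it from Sftpd (8.07 ± 0.849 and 72.1 ± 3.27 CPM) and Foxj1 (7.24 ± 0.881 and 53.1 ± 3.03 CPM; SD, n = 3 each).

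A desmosome is a spot-like junction that ties the keratin filaments of neighbouring epithelial cells together. Desmogleins (Dsg) and desmocollins (Dsc) are cadherins that bridge the gap between cells, plakoglobin (Jup) and the plakophilins (Pkp) are armadillo-repeat proteins that bind their tails, and desmoplakin (Dsp) links this plaque to keratin. Periplakin (Ppl) and envoplakin (Evpl) are plakins of the same family as desmoplakin that join desmosomes in stratified epithelia and are precursors of the cornified envelope. Simple and glandular epithelia mainly use Dsg2, Dsc2 and Pkp2, whereas Dsc3, Dsg3 and Pkp1 are typical of stratified and basal epithelium; in the mammary gland desmosomes hold the luminal and the myoepithelial layers together.

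Counts summed to between 69759793 and 73654058 per EL library and between 78054335 and 85126630 per PT library, the lowest from the incomplete table of EL replicate 1. Of 13844 genes tested, the quasi-likelihood test of edgeR called 80.7% at an adjusted p under 0.05, 39.9% higher and 40.8% lower in PT, and the 2 groups did not overlap for 82.7%. Scaling was by TMM, a trimmed mean of ratios between libraries; with plain totals, the median shift of the log2 fold changes was 0.25 and the share of called genes that were higher went from 49.5% to 65.8%. Levels are in CPM, a count relative to its library's TMM-adjusted total, and a log2 fold change is PT minus EL with its standard error (SE).

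In PT spheres, 8 of the 10 desmosome genes were higher than in EL spheres and 2 were lower, by edgeR. The 8 were Ppl, Evpl, Pkp2, Dsc2, Dsg2, Pkp3, Jup and Dsp, and the 2 were Pkp1 and Dsc3. The median log2 fold change of the 10 was 1.16, beside 0.00 over all genes tested. Since the 10 were chosen with earlier results of these data known, the values for all genes are given here as description only. Of all genes, 39.9% were called higher and 40.8% lower. For 6 of the 10 the rise was over 2-fold (background 9.43%) and for 2 the fall was over 2-fold (background 19.4%). The libraries of the 2 groups did not overlap for any of the 10, beside 82.7% of all genes without overlap. All 10 passed the filter on low counts, Dsc3 through its EL libraries alone. In these bulk samples a change in the number of cells of a type and a change in RNA per cell cannot be told apart.

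**Figure D1:**
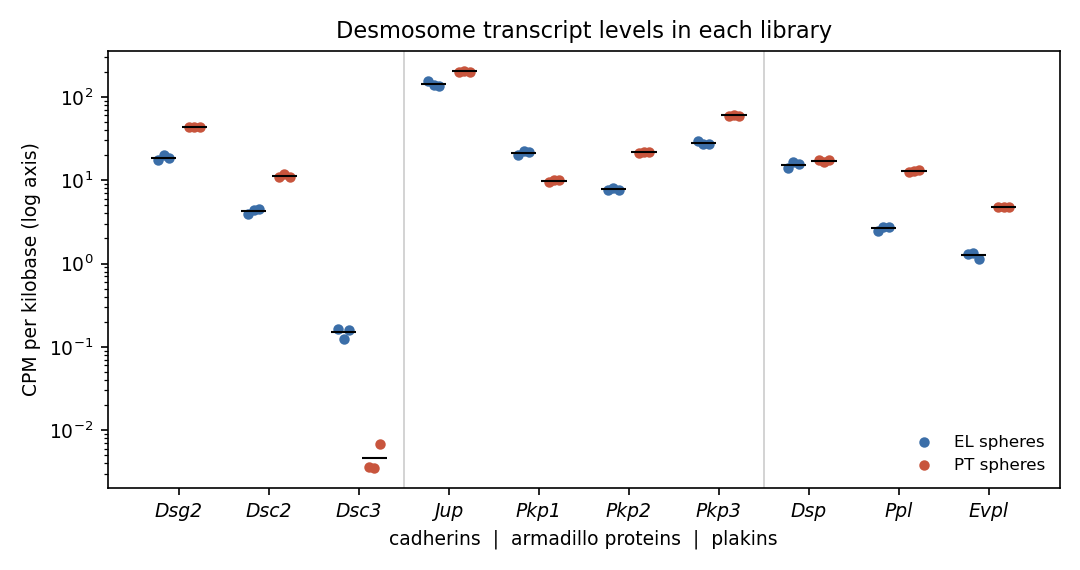
Level of each desmosome gene per kilobase of transcript (CPM per kilobase, log axis) in the 3 EL (blue) and 3 PT (red) libraries, with the mean of each group as a line. The EL and PT points of each gene are separate, Pkp1 and Dsc3 are the 2 genes whose PT points lie lower, and Jup is the highest gene in both groups.

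Among the cadherins, Dsg2 and Dsc2 rose together and Dsc3 fell to a few counts. Dsg2 (chromosome 18, 20558074 to 20604521 in GRCm38), the desmoglein found in most desmosome-bearing tissues, stood at 99.6, 117 and 108 CPM in EL replicates 1 to 3 and at 250.1, 254 and 255 in PT replicates 1 to 3. Each PT library was above each EL library, and the log2 fold change was 1.23 with an SE of 0.05 (edgeR adjusted p = 4.49e-11). An annotated antisense gene, Gm16090, overlaps Dsg2 exons, and without strand information its reads could not be told apart.

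Dsc2 (chromosome 18, 20030633 to 20059554), the widely expressed desmocollin, was at 18.4, 20.5 and 20.9 CPM in EL and at 50.2, 55.7 and 50.7 CPM in PT. Its log2 fold change was 1.39 with an SE of 0.06 (edgeR adjusted p = 9.68e-11), again with PT above EL in all libraries. Dsc2 and Dsg2 were close in their change: the log2 ratio of Dsg2 to Dsc2 counts moved by -0.16, from 2.44 ± 0.07 to 2.28 ± 0.08 (SD, n = 3 each; two-sided exact permutation p = 0.1, the least that 3 against 3 libraries can give).

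Dsc3 (chromosome 18, 19960930 to 20002351), the desmocollin of basal and stratified layers, had 36, 26 and 34 counts in EL and 1, 1 and 2 in PT. Although it lies in the same cadherin cluster of chromosome 18 as Dsc2 and Dsg2, it moved the other way. The 96 EL counts against 4 PT counts give a 31.9-fold lower level in PT (exact 95% interval 12.1 to 120 for counting error alone). The fitted log2 fold change was -4.85 with an SE of 0.44 (edgeR adjusted p = 2.37e-07). Dsc3 was tested only because its EL libraries passed the count filter, so this p-value adds no independent support for its fall. Even in EL it was a minor transcript, at 0.795 ± 0.123 CPM (SD, n = 3). Per unit of length, Dsg2 made up 80.8 ± 0.859% of the transcripts of these 3 cadherins in EL and 79.6 ± 0.887% in PT, and Dsc3 0.649 ± 0.143% and 0.00841 ± 0.00331% (SD, n = 3 each). The Dsg2 share overlapped between the groups (two-sided exact permutation p = 0.3).

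Jup (chromosome 11, 100368958 to 100397763) encodes plakoglobin, which also binds E-cadherin in adherens junctions, and was the most abundant of the 10 per unit of length. It was at 501, 449 and 429 CPM in EL and at 647, 664 and 642 CPM in PT. All PT libraries were above all EL libraries, EL replicate 1 being the highest of its group, and the log2 fold change was 0.50 with an SE of 0.05 (edgeR adjusted p = 5.25e-07).

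The plakophilins did not move together. Pkp1 (chromosome 1, 135871395 to 135919207), the plakophilin that strengthens desmosomes of stratified epithelium, was at 94.9, 104 and 101 CPM in EL and at 44.4, 46.6 and 47.0 in PT. It fell by 1.12 on the log2 scale with an SE of 0.04 (edgeR adjusted p = 3.07e-11), and all 3 PT libraries lay below the EL libraries. Its fall was smaller with library totals (-0.88), with the same direction and call.

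Pkp2 (chromosome 16, 16213318 to 16272712), the plakophilin of simple epithelia and heart muscle, stood at 22.5, 23.7 and 22.3 CPM in EL and at 61.7, 63.8 and 63.1 in PT (a log2 change of 1.46 with an SE of 0.04, edgeR adjusted p = 1.35e-12). Pkp3 (chromosome 7, 141078218 to 141090510), the plakophilin that binds the widest range of desmosomal proteins, was at 83.9, 78.5 and 76.6 CPM in EL and at 170, 173 and 170 in PT (a log2 change of 1.10 with an SE of 0.04, edgeR adjusted p = 8.69e-12). Both were higher in each PT library than in any EL library. Within a library, the log2 ratio of Pkp1 to Pkp3 counts went from 0.33 ± 0.13 in EL to -1.89 ± 0.04 in PT, a change of -2.23 that does not depend on the scaling of libraries (SD, n = 3 each; two-sided exact permutation p = 0.1, adjusted p = 0.1 over 6 ratios, the smallest possible). The ratio of Pkp2 to Pkp3 moved by 0.36 in the other direction (same p). Per unit of length, Pkp1 went from 37.5 ± 1.84% to 10.8 ± 0.244% of the transcripts of these 3 plakophilins (SD, n = 3 each). Pkp2 went from 13.7 ± 0.309% to 23.6 ± 0.130% and Pkp3 from 48.8 ± 2.08% to 65.7 ± 0.368% (SD, n = 3 each). The related gene Pkp4, at 11.2 CPM per kilobase in EL and 14.7 in PT, was not counted among these 3.

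**Figure D2:**
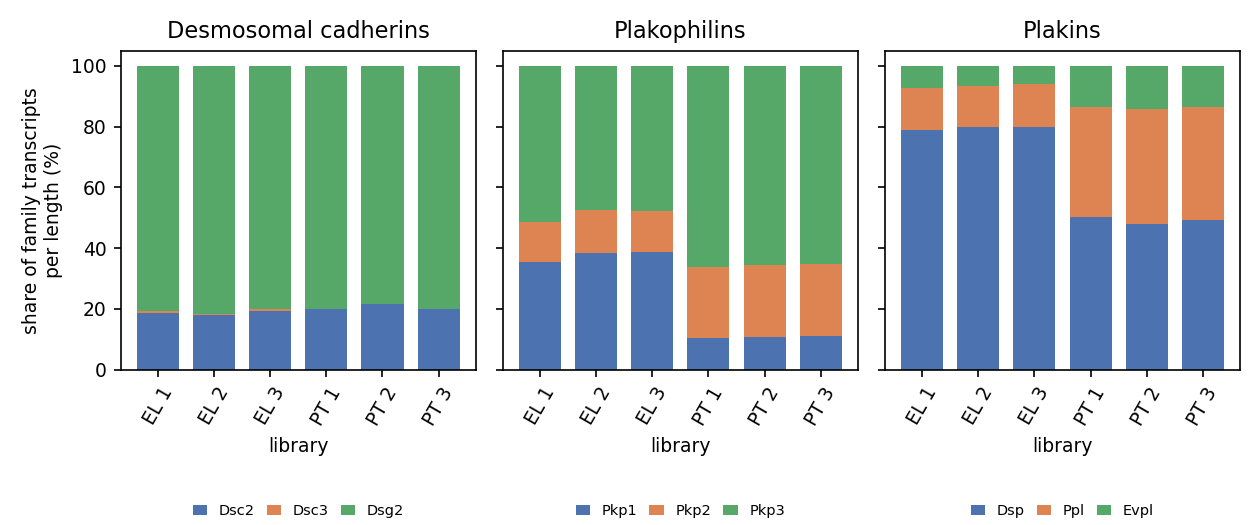
Share of each gene, in percent, in the transcripts of the listed genes of its family per unit of length, for each of the 6 libraries (EL 1 to 3, PT 1 to 3). Dsg2 holds 78.5 to 81.7% of the 3 listed cadherins in all 6 libraries, and the thin Dsc3 band of EL is not visible in PT. Pkp1 shrinks from 35.4 to 38.6% in EL to 10.5 to 11.01% in PT, and Dsp from 78.9 to 79.9% to 47.9 to 50.2%.

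The plakins differed in how much they rose. Dsp (chromosome 13, 38151294 to 38198577), the obligate linker to keratin filaments, was at 136, 157 and 149 CPM in EL and at 167, 158 and 166 CPM in PT. The groups came close without overlap, since EL replicate 2 reached 157 CPM and PT replicate 2 was at 158, and the log2 fold change was 0.15 with an SE of 0.05 (edgeR adjusted p = 0.00895). This was the smallest change of the 10 genes. It was 0.10 without EL replicate 1, 0.09 in the 5 complete libraries and 0.40 with library totals, and it passed the test in each of these. An annotated gene on the opposite strand, Gm10129, overlaps Dsp exons.

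Ppl (chromosome 16, 5086291 to 5132421) showed the largest rise of the 10, from 15.5, 17.3 and 17.2 CPM in EL to 78.4, 81.3 and 81.5 in PT (a log2 change of 2.27 with an SE of 0.05, edgeR adjusted p = 7.10e-14). Its partner Evpl (chromosome 11, 116220559 to 116238077), with which it forms dimers, went from 8.33, 8.61 and 7.22 CPM to 30.0, 30.8 and 30.5 (a log2 change of 1.92 with an SE of 0.06, edgeR adjusted p = 8.64e-12). Each PT library of both genes lay above the EL range. Of all genes tested, 98.3% had a lower log2 fold change than Ppl and 97.4% a lower one than Evpl. Evpl rose less than Ppl within libraries, the log2 ratio of their counts moving by -0.35 (two-sided exact permutation p = 0.1, no overlap). Per unit of length, Dsp went from 79.6 ± 0.579% to 49.1 ± 1.14% of the transcripts of the 3 plakins, Ppl from 13.9 ± 0.347% to 37.2 ± 0.893% and Evpl from 6.56 ± 0.714% to 13.7 ± 0.275% (SD, n = 3 each).

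**Figure D3:**
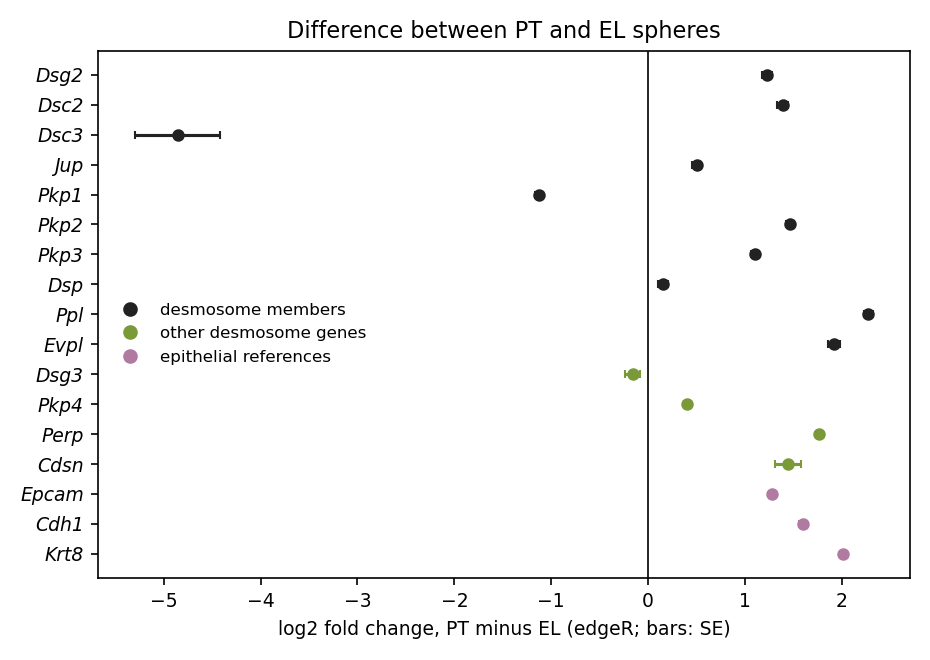
Log2 fold change, PT minus EL, of the 10 desmosome genes (black), the 4 other desmosome genes that passed the count filter (green) and 3 epithelial reference genes (purple), with the SE as bars. Ppl is farthest to the right at 2.27 and Dsc3 farthest to the left at -4.85; Dsp and Dsg3 lie nearest to 0.

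Sequence upstream of the start was held for Dsp and Jup, the linker and the plaque protein that rose least among the 8, and is shown for these 2 from RefSeq (GRCm38.p6). Capitals mark the letters GGGCGG or their reverse complement, the core of a GC box.

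Dsp, chr13:38151044-38151293, plus strand: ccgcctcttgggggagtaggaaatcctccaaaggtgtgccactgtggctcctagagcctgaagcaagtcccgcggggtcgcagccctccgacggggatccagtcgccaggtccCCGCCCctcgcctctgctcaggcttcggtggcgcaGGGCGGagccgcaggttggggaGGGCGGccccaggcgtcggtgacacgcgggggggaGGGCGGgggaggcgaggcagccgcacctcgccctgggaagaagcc

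Jup, chr11:100397840-100398040, minus strand: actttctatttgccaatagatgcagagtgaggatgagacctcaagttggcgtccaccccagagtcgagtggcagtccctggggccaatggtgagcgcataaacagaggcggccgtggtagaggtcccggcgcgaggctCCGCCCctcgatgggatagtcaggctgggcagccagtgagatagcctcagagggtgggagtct

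The 250 bases before the start hold 4 matches to GGGCGG on either strand in Dsp and 2 in Jup, 1 of which lies in the printed stretch, which ends before the earliest annotated start. At least 1 such match is in 32.7% of 32851 promoter windows of the same length. The letters AACCGGTT, CAGGTG and TGANTCA, searched on both strands, had no match in either window and are in 0.12%, 17.2% and 6.75% of all windows. A match is a description of these letters and not a binding site.

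Compared per unit of length, Jup led both groups, at 143 ± 11.5 CPM per kilobase in EL against 203 ± 3.46 in PT (SD, n = 3 each). In EL it was followed by Pkp3, Pkp1, Dsg2, Dsp, Pkp2, Dsc2, Ppl, Evpl and Dsc3. In PT the order was Jup, Pkp3, Dsg2, Pkp2, Dsp, Ppl, Dsc2, Pkp1, Evpl and Dsc3, so that Pkp1 went from place 3 to place 8. Neighbours in these orders did not overlap between their 3 libraries in either group. The sum of the 10 genes was 243 ± 10.1 CPM per kilobase in EL against 384 ± 4.85 in PT, which is 1.58 times as much.

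As a sum, made up mostly of Dsg2, the 3 cadherins among the 10 genes rose more than the plakophilin and plakin sums. This did not hold gene by gene: Dsc3 fell, and Ppl, Evpl and Pkp2 had larger log2 fold changes than Dsg2 and Dsc2. The cadherin sum went from 23.2 ± 1.73 to 55.1 ± 0.932 CPM per kilobase, a ratio of 2.38. The ratio was 1.60 for Pkp1, Pkp2 and Pkp3 and 1.80 for the 3 plakins. Dsg3, at 1.51 CPM per kilobase in EL and 1.35 in PT, was not counted among these 3. For each transcript of the 3 cadherins there were 6.22 ± 0.933 Jup transcripts in EL and 3.68 ± 0.0435 in PT. Transcripts of Pkp1, Pkp2 and Pkp3 together numbered 2.48 ± 0.183 in EL and 1.66 ± 0.00733 in PT. Dsp transcripts numbered 0.661 ± 0.00326 in EL against 0.310 ± 0.0147 in PT (SD, n = 3 each). Ppl and Evpl together went the other way, from 0.170 ± 0.00620 to 0.321 ± 0.00305. None of these 4 ratios overlapped between the groups (two-sided exact permutation p = 0.1 for each). These ratios and the shares within families were chosen after values had been seen.

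Of 10 luminal epithelial markers 9 were higher in PT, and the desmosome genes were also set against Epcam, an epithelial surface adhesion gene outside the desmosome, within each library. Epcam itself was at 472, 489 and 484 CPM in EL and at 1157, 1181 and 1163 in PT (a log2 change of 1.28 with an SE of 0.03). Relative to Epcam, Pkp1 moved by -2.40, Dsp by -1.12, Jup by -0.77 and Pkp3 by -0.17 on the log2 scale, and Dsc3 by -5.87, or by -4.23 with a pseudocount of 5 in place of 0.5. Ppl moved by 1.00, and by 0.68 and 0.26 relative to the adhesion gene Cdh1 and the keratin gene Krt8. Evpl moved by 0.64 relative to Epcam and by 0.32 relative to Cdh1, but by -0.09 relative to Krt8. For Dsc2 and Pkp2 the small rise relative to Epcam (0.11 and 0.18) turned into a fall relative to Cdh1 (-0.21 and -0.14) and Krt8 (-0.62 and -0.55). The Dsc2 value was 0.068 without EL replicate 1 and 0.071 without PT replicate 2, and with a pseudocount of 5 it was 0.10 (two-sided exact permutation p = 0.2). Dsg2 was the 1 gene whose libraries overlapped between the groups, with a log2 ratio to Epcam of -2.16 ± 0.09 in EL and -2.21 ± 0.01 in PT (two-sided exact permutation p = 0.6); its change of -0.05 was -0.09 without EL replicate 1 and -0.00015 without EL replicate 2, and relative to Cdh1 and Krt8 it moved by -0.37 and -0.78. The other 9 did not overlap relative to Epcam (two-sided exact permutation p = 0.1, adjusted p = 0.111 over 10 comparisons, where no smaller p was possible).

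**Figure D4:**
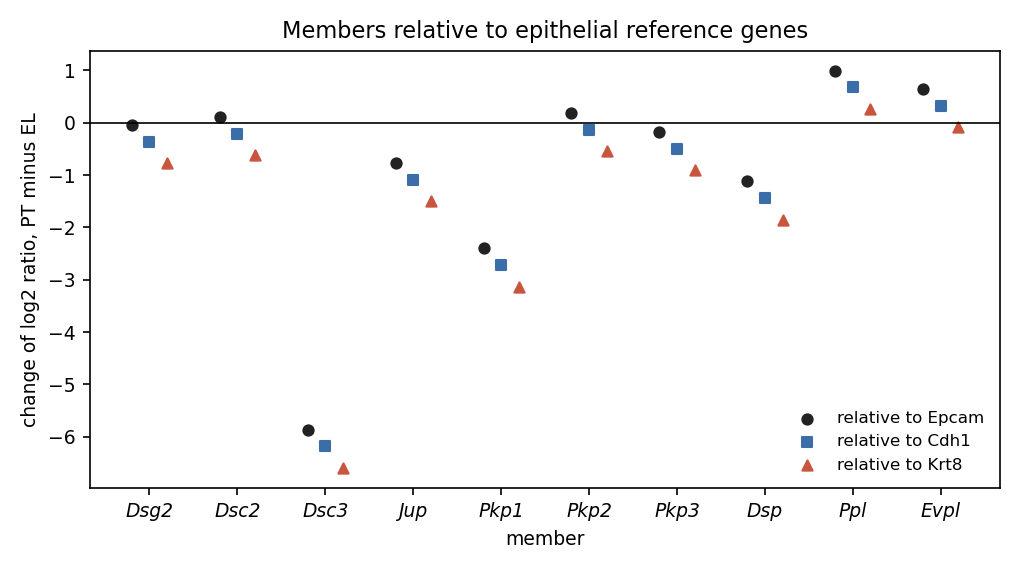
Change of the log2 ratio of each desmosome gene to a reference gene, PT minus EL, with Epcam (black circles), Cdh1 (blue squares) or Krt8 (red triangles) as the reference. Dsp, Jup, Pkp1, Pkp3, Dsg2 and Dsc3 lie below 0 against all 3 references, Ppl lies above 0 against all 3, and Dsc2, Pkp2 and Evpl change sign with the reference.

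Desmosome genes outside these 10 included 3 that rose. Of 9 such genes listed, 4 passed the count filter, of which 3 were higher in PT and 1 did not pass the test. Perp, a tetraspan protein needed for desmosome assembly, was at 79.4, 80.4 and 81.4 CPM in EL and at 267, 280.3 and 273 in PT (a log2 change of 1.77 with an SE of 0.03, edgeR adjusted p = 1.99e-14). Cdsn, the corneodesmosome protein of cornified layers, went from 1.47 ± 0.143 to 4.002 ± 0.173 CPM (a log2 change of 1.44 with an SE of 0.13), and Pkp4, a plakophilin relative that also sits in adherens junctions, from 51.5 ± 0.952 to 68.1 ± 0.884 (0.40, SE 0.03). Dsg3, the desmoglein of basal and stratified layers, was at 9.36 ± 0.725 CPM in EL against 8.37 ± 0.360 in PT (a log2 change of -0.16 with an SE of 0.08, edgeR adjusted p = 0.0800). Dsc1 had 9 counts in EL, 8 of them in replicate 3, and 1 in PT. Dsg1b had 2 counts in EL and 0 in PT, Dsg1c 0 and 7, and Dsg4 0 and 4. Dsg1a had none in any library. The desmoglein 1 genes are near-identical copies whose reads cannot be assigned with certainty.

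By its median, the desmosome list stood between those of the tight and the adherens junctions. All 13 tight junction genes were higher in PT (median log2 fold change 1.67), with Cldn1 at 3.44, Cldn4 at 2.52, Cldn3 at 2.23 and the plaque protein Cgn at 2.20. Of 9 adherens junction genes, 6 were higher, 2 lower and 1 did not pass (median 0.62). Among them Cdh1 and its partner Ctnnd1 rose by log2 values of 1.60 and 1.14 and the nectin gene Pvrl4 by 1.30, whereas Pvrl1 fell by 1.21. Ctnnb1, the catenin most like plakoglobin, named after its values were seen, was at 1165 ± 10.7 CPM in EL against 1169 ± 25.3 in PT (adjusted p = 0.872 by edgeR). The median over all genes tested was 0.00, and these lists are described by their counts with no test of the list.

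Hemidesmosomes, which fix keratin to the basement membrane, and the keratins were split. Of 9 hemidesmosome genes, 5 were higher and 4 lower (median 0.22). Col17a1, a collagen that spans the membrane of basal cells, fell from 19.7 ± 0.434 to 0.127 ± 0.0768 CPM, and the laminin chain gene Lama3 from 22.6 ± 1.06 to 2.22 ± 0.0388. The integrin gene Itga6 rose by 1.42 and the tetraspanin gene Cd151 by 0.67 on the log2 scale. Of 10 keratins that desmosomes can bind, 5 were higher (Krt7, Krt8, Krt14, Krt17 and Krt18) and 5 lower (Krt5, Krt6a, Krt6b, Krt15 and Krt19). Krt17 and Krt18 rose by 2.79 and 2.05, and Krt19 fell by 6.71 on the log2 scale.

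Of 14 other plakin and cornified envelope genes, 9 passed the filter, with 5 higher, 3 lower and 1 that did not pass. Eppk1, epiplakin, rose from 3.25 ± 0.348 to 28.0 ± 0.621 CPM (a log2 change of 3.11 with an SE of 0.07) and Dst, dystonin, by 0.91, while Plec, plectin, fell by 0.90 and the transglutaminase gene Tgm5 by 1.21 on the log2 scale. Of the 10 cornified envelope genes in this list, Tgm1, a transglutaminase that crosslinks the envelope, was the most abundant in PT. Its level was 7.36 ± 0.172 CPM in EL and 6.09 ± 1.02 CPM in PT, and it was called lower (edgeR adjusted p = 0.0394). The groups overlapped, with PT replicate 2 at 7.25 CPM. Tgm5 was at 1.19 ± 0.110 CPM in PT, and Tgm3 and Sprr1a, both called higher, at 0.394 ± 0.0465 and 0.495 ± 0.148 CPM. The Sprr1a libraries overlapped between the groups. Lor was at 0.199 ± 0.0639 CPM in EL and 0.264 ± 0.140 CPM in PT. Ivl had 45 counts in EL and 7 in PT, Krtdap 8 and 0, Sprr1b 7 and 0, and Cnfn 0 and 3. Sprr2a1 had none in any library.

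**Figure D5:**
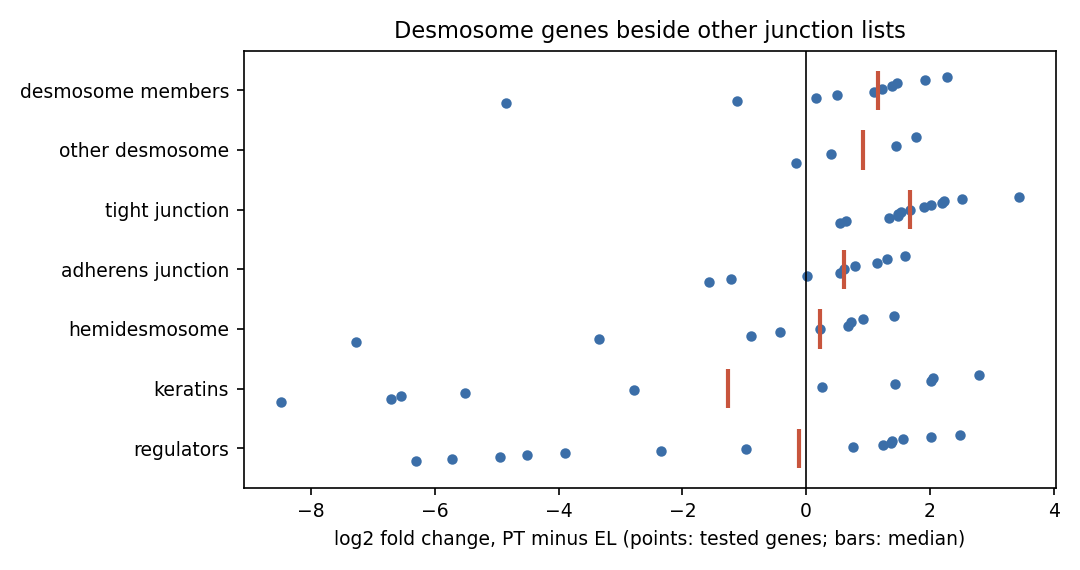
Log2 fold change, PT minus EL, of each tested gene (points) in the desmosome list and in 6 lists of related genes, with the median of each list as a red bar. All tight junction points lie above 0, while every other list shown holds genes on both sides.

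Of 14 transcription factors known to act on desmosomal or other epithelial junction genes, 7 were higher and 7 lower in PT (median -0.11). Those higher included Grhl1, Grhl2, Grhl3, Klf5, Ovol1 and Ovol2, and Trp63, Klf4, Zeb1, Zeb2, Snai1, Snai2 and Twist1 were lower. Zeb1, Zeb2, Snai1 and Twist1, repressors of epithelial genes, had log2 fold changes of -5.72, -3.90, -4.51 and -6.30. The 14 fibroblast markers fell in the same libraries (median log2 fold change -6.61), and the part of fibroblasts in the values of these factors was not tested. Named after their values were seen, Grhl1, a known activator of desmosomal cadherin genes, went from 22.9 ± 1.39 to 58.9 ± 1.69 CPM, and Trp63, the basal factor known to drive several desmosome genes, from 11.1 ± 0.891 to 2.19 ± 0.194 CPM (a log2 change of -2.34 with an SE of 0.10).

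Markers of other cells moved with these differences. The 14 fibroblast markers summed to between 71127 and 75669 CPM in EL and between 695 and 830 in PT, all 14 lower, and the 10 endothelial markers to between 279 and 302 and between 6.59 and 7.42, all 10 lower. Lymphatic endothelium can hold Dsp, Jup and Pkp2; 4 of 5 of its tested markers were lower and Prox1 was higher, with sums of 231 to 261 and 14.0 to 15.2 CPM. Of 10 luminal markers, which include Epcam, Cdh1 and Krt8, 9 were higher and Krt19 was lower, with sums of 2419 to 2497 and 8632 to 8940 CPM. Of 9 macrophage markers 8 were higher and 1 did not pass, with sums of 72.5 to 96.0 and 179 to 207 CPM. The part of these cell types in the rise of the 8 desmosome genes was not tested.

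The fall of Pkp1 and Dsc3 stood beside that of basal and myoepithelial markers. Of 12 such markers, 9 were lower and 3 (Krt14, Krt17 and Oxtr) higher, with sums of 890 to 917 CPM in EL and 651 to 687 in PT. Of the markers with the smallest p-values, Cxcl14 fell by 4.07 and Tagln by 2.79 on the log2 scale, and Oxtr rose by 3.52. The desmoglein gene Dsg3, also typical of basal epithelium, moved by -0.16 on the log2 scale and did not pass the test (edgeR adjusted p = 0.0800). Skin keratinocyte markers, which could also bring Pkp1 and Dsc3, summed to 15.4 to 15.99 CPM in EL and 27.2 to 29.4 in PT. Of the 9 listed genes, 3 were tested, Sbsn being higher and Krt10 and Lor not passing, and Krt2 was at 0 in EL, Krtdap in PT and Dsg1a in both. Heart and skeletal muscle markers, of interest for Pkp2, summed to 12.5 to 14.0 CPM in EL and 27.1 to 30.5 CPM in PT. Most of the PT sum came from Acta1, at 0.598 ± 0.0714 CPM in EL and 25.6 ± 1.71 CPM in PT (SD, n = 3 each). Of 4 tested, 2 were higher (Acta1 and Tnni3) and 2 lower (Des and Tnnt2). Myh7 was at 0 in all libraries and Ryr2 in PT. Of the 4 lung epithelial markers tested, Sftpd, Foxj1 and Hopx were higher in PT and Ager did not pass. The part of these cells in the values of Pkp1, Dsc3 and Pkp2 was not tested.

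The genes outside the desmosome whose centred log2 CPM over the 6 libraries lay nearest to the median profile of the 10 included Rin2, Ddx58, Map7 and Nhsl1, at root-mean-square distances of 0.0195 to 0.0217 log2 units. Their log2 fold changes lay between 1.13 and 1.18. With 2 groups, this likeness rests mostly on the size of 1 difference, and the 6 points are shared by all genes.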

How the data were processed

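The deposited files hold raw counts per RefSeq transcript, 1 file for each of 6 libraries, made by the authors and not normalized. The submitters' processing notes list mm10 and hg19 as builds, and DESeq2, featureCounts and STAR as tools. The sources used here give no version, parameter or strand setting. The table of EL replicate 1 breaks off after 27664 of 33068 transcripts. It lacks 4170 symbols, none of them named here. For each symbol the transcript with the highest mean count among rows present in all 6 libraries was used. Reads can be counted for several transcripts of a gene.

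Genes were filtered with filterByExpr and tested with the quasi-likelihood test of edgeR 4.0.16 in R 4.3.3 (TMM factors, no covariates, all 6 libraries, Benjamini-Hochberg adjustment over 13844 genes, threshold 0.05). The SE is the unshrunk coefficient divided by the root of the F statistic. Ratios within a library used counts plus 0.5 and an exact two-sided permutation test (scipy 1.17.1). Lengths and positions are from GENCODE M21 (GRCm38), matched through RefSeq accessions for 98.8% of symbols. Dsc3 has 2 transcripts with equal counts, and the first by name, of 5.333 kilobases, was used. On data simulated from the real means with a common dispersion for all genes, 183 of 200 changed genes were recovered. Among 13752 genes, 8 of the unchanged genes were called. In the real data 80.7% of genes were called, so the simulation does not measure how the scaling or the test does under so many differences. Alternatives were other scalings (RLE, upper quartile, library totals), DESeq2 1.42.0, limma-voom (limma 3.58.1), other count filters, summed transcripts, a replicate block, each library left out and, added after seeing the data, the 5 complete libraries. The genes named are the 10 members, the other desmosome genes, up to 4 genes with the smallest p-value from each list, 5 genes of the most similar profile and 3 references. Others are named as chosen after their values were seen or as members of a count. The 10 cornified envelope genes are all named, outside this rule. The members and lists were chosen with earlier results of these data known. Lists are described by counts and medians, with no test. Some genes that these rules name are not reported here.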

Additional observations from a re-analysis of the deposited data

How the results depend on the processing

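Of the 10 desmosome genes, 8 were higher in PT under all 16 alternatives, and 2 were lower under all but 1: with a CPM of at least 1 in 3 libraries, Dsc3 was not tested and the count of lower genes was 1. The number of genes called lay between 10433 and 12197, and between 10758 and 11283 with 1 library left out. No direction or call of the 10 changed where the gene was tested, and the adjusted p of Dsp lay between 2.68e-06 and 0.0349. Relative to Cdh1 in place of Epcam, Dsc2 and Pkp2 reversed to -0.21 and -0.14, and relative to Krt8, Dsc2, Pkp2 and Evpl reversed to -0.62, -0.55 and -0.088. With summed transcript rows, which count most reads of Pkp3 and Dsc3 under both of their rows by construction, the Pkp1 share changed by -18.8 percentage points against -26.7, and those of Pkp2, Pkp3 and Dsc3 by 5.07, 13.7 and -1.27. Same-numbered EL and PT libraries did not deviate together (correlations of 0.0222, 0.00839 and -0.00216). The highest correlation was between EL replicate 3 and PT replicate 2 (0.0265). Such values cannot show whether same-numbered libraries were matched, since a shared batch need not leave a common deviation. With a replicate block 11203 genes were called and the 10 kept their 8 higher and 2 lower calls. Differences below about 10 counts per library, as for Dsc1, Dsg1b, Dsg1c and Dsg4, could not be assessed at this depth.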
